A study of Mus musculus with 4 samples.

Results

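The sites described here are the wide Wapal-binding sites of mouse embryonic stem cells (ESCs), chosen by the width and the score of each region in the list of sites occupied by tagged Wapal. A site entered when it was at least 1500 bp wide, had a score under 200 and shared no base with a region recovered from control cells. The score is the peak caller's -10 log10 p-value for a region. Of 8497 regions listed, 8323 shared no base with a control region, and 358 of these were wide sites. The study gives a slightly lower total of sites after its own subtraction of control regions. The 7944 sites under 1500 bp, of any score, served for comparison. A further 21 wide regions had a score of 200 or more and were not used.

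Chromatin immunoprecipitation with sequencing (ChIP-seq) was performed on ESCs that carried Flag and biotin-tagged Wapal (FB Wapal), which the bacterial ligase BirA biotinylates in the cell so that streptavidin beads recover it. The FB Wapal group was 2 clones, each an independently derived line, and the tagged protein was made beside the cells' own Wapal. The control group was 1 library of ESCs with BirA and no tagged Wapal, and 1 library was input chromatin. The ESCs were 129SVJ-derived and all cells were grown under standard ESC conditions with no further treatment. The 2 clones were deposited as 1 joined list of regions, by a rule not given in the sources used here. A wide region may thus be 1 called region or regions of both clones put together, which cannot be told apart here and bears on every width, centre and edge distance below. No value here has a replicate, no test over samples was possible, and intervals cover counting error only. The list holds no read counts, so the depth behind a region is unknown.

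Wapal is the factor that releases cohesin from chromatin. Cohesin is a ring-shaped complex that holds sister chromatids together and extrudes DNA loops, and CTCF is the zinc finger protein at which moving cohesin is commonly halted. Most cohesin sites in mammalian cells therefore hold a CTCF motif, a directional sequence whose orientation decides from which side cohesin is halted. Cohesin is also loaded or found at active promoters and enhancers, where CTCF motifs may be lacking.

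The sequences below show the CTCF core motif in wide sites, with 15 bases on each side, from the mm9 reference (NCBIM37) and written on the forward strand. Capitals mark the 12 bases of the match, read on either strand and with at most 1 mismatch to the core. The first were chosen because the site held an amplicon of the study (Adm), had a score among the highest (Ccnl1, Moxd1, Nxph3) or was among the widest (4930578M01Rik, Gbx2, Sox2). Each is named by the nearest gene, and only the closest match to the core is shown for sites with several.
Adm, chr7:117773849-117773890: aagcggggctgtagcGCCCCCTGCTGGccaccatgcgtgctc
Ccnl1, chr3:65733580-65733621: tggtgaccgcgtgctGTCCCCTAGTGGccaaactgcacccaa
Moxd1, chr10:24018534-24018575: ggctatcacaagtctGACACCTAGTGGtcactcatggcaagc
Nxph3, chr11:95382224-95382265: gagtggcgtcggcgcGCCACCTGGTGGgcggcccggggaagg
4930578M01Rik, chr15:98824513-98824554: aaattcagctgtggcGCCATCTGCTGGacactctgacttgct
Gbx2, chr1:91839981-91840022: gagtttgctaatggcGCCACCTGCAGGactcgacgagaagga
Sox2, chr3:34546794-34546835: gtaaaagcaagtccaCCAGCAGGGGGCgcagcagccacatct
In the Sox2 site the core ran on the forward strand, and in the other 6 on the reverse strand. The matches at Adm, Nxph3, 4930578M01Rik and Sox2 were exact.

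The next sequences come from wide sites with 3 matches and show matches on the same and on opposite strands. They are named by the nearest protein-coding gene, Ptma and Col14a1.
Ptma 1, chr1:88429109-88429150: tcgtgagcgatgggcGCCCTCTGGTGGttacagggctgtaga
Ptma 2, chr1:88430111-88430152: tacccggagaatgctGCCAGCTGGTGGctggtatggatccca
Ptma 3, chr1:88430474-88430515: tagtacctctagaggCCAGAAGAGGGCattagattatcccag
Col14a1 1, chr15:55098843-55098884: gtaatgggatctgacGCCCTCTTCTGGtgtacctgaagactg
Col14a1 2, chr15:55100342-55100383: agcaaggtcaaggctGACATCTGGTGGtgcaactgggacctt
Col14a1 3, chr15:55100851-55100892: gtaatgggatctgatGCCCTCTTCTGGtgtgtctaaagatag
The outer Col14a1 matches and the last Ptma match were the same word on opposite strands. That word, CCAGAAGAGGGC, carries 1 mismatch to the core and was the commonest matched word in wide sites, at 46 of 384 matches (11.98%, Wilson 95% interval 9.10 to 15.6). It made up 8.70% (8.04 to 9.41) of matches in sites under 1500 bp and 31.9% (26.5 to 37.9) of matches in regions of the same width 5 kb from wide sites. It occurs 50332 times in mm9, against 2000 for CCAGCAGAGGGC, the commonest exact word in wide sites with 17 matches (4.43%, 2.78 to 6.97). A match of 1 mismatch in a wide site can therefore be a word that is abundant in the genome at large.

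A last set comes from wide sites without a CTCF core match and shows the element TCAAGGTCA, bound by Esrrb, an orphan nuclear receptor of the ESC pluripotency network. Capitals mark that element, on either strand.
Sox2 distal site 1, chr3:34655493-34655531: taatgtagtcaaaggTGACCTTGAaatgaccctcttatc
Sox2 distal site 2, chr3:34656867-34656905: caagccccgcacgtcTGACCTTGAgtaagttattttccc
Mtf2, chr5:108506493-108506531: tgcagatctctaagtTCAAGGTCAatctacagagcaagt
None of the printed windows overlapped an annotated exon.

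The widths of the wide sites ranged from 1500 to 6023 bp with a median of 1791, against a median of 804 for sites under 1500 bp. Their scores ranged from 50.2 to 198 with a median of 74.6, against 81.5. Both quantities were used in the choice of sites and are given as a description. The narrowest wide site, next to Srsf1, was 1500 bp, and the widest site outside the limit, next to Adam23, was 1499 bp. At the score limit, the Ccnl1 site was just inside with 198 and a Plxnc1 site just outside with 201. The removal of control regions took more from wide regions than from narrow ones: 55 of 434 regions of at least 1500 bp (12.7%) shared a base with a BirA region, against 119 of 8063 (1.48%). A BirA region lay within 10 kb of 5 wide sites (1.397%, 0.598 to 3.23) and of 0.352% (0.244 to 0.509) of the sites under 1500 bp.

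CTCF core matches in wide sites lay most often about midway between the centre and an edge, and seldom at the very end. Of the 358 wide sites, 255 (71.2%, 66.3 to 75.7) held a match, close to the 74.6% (73.6 to 75.5) of sites under 1500 bp, with a difference of -3.36 percentage points (Newcombe 95% interval -8.34 to 1.19). A longer site has more room for a match, so the shares of 71.2% and 74.6% are not matched for length. Regions of the same width 5 kb to each side held a match in 27.7% (24.5 to 31.0) of cases for wide sites. For sites under 1500 bp the share in such regions was 9.20% (8.76 to 9.65). Above regions of the same width, the share thus rose less in wide sites than in narrower ones. Per kb, wide sites held 0.527 matches and sites under 1500 bp 0.996. Of all wide sites, 20.4% (16.5 to 24.9) had a match within 250 bp of their centre, against 72.3% (71.3 to 73.2) of sites under 1500 bp, a difference of -51.9 points (-55.8 to -47.3). Among wide sites with a match the share was 28.6% (23.4 to 34.5). The median distance of a match from the centre was 392 bp in wide sites and 43.0 bp in sites under 1500 bp. A window of fixed length covers a larger part of a narrower site, so these contrasts in bp depend in part on the choice by width. Positions relative to the width are given next. With each site divided into 10 equal parts, wide sites had most matches in parts 3 (22.9%) and 8 (21.9%), while sites under 1500 bp had most in parts 5 (34.3%) and 6 (35.9%). With 3 equal parts, the middle part held 29.4% of the matches in wide sites and 85.7% in narrower ones. With 6 equal parts, the first and the last together held 12.8% and 2.80%.

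Wide and narrower sites differed more on the longer side of the motif than on the shorter one. Among the 148 wide sites with a single match, the shorter side, from the centre of the motif to the nearer edge, had a median of 461 bp and quartiles of 405 and 605. In the 5344 sites under 1500 bp with a single match the median was 367 bp and the quartiles 296 and 407. In 103 of the 148 wide sites (69.6%, 61.8 to 76.4) the shorter side measured 300 to 600 bp, against 73.7% (72.5 to 74.8) of the sites under 1500 bp and 90.4% (88.0 to 92.4) of those of 1000 bp up to the limit. The longer side had a median of 1255 bp in wide sites and 433 bp in the others. Since a wide site holds at least 1500 bp, the sum of the sides was set by the choice of sites, but how it was shared between them was not.

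The longer side lay more often 3′ of the motif, reading the core from its CCA end to its GGC end. This was so in 92 of 148 wide sites (62.2%, 54.1 to 69.6). The same lean was present in sites of 1000 bp up to the limit (63.6%, 59.9 to 67.1) and of under 1000 bp (60.3%, 58.9 to 61.7), so it was not particular to wide sites. The longer side faced the nearest transcription start site (TSS) in 80 of 148 (54.1%, 46.02 to 61.9). The Sox2 site held 2 matches and is not among the 148. Its forward match sat 421 bp from the lower edge, with 4130 bp of site 3′ of it, and its reverse match lay near the centre. At Gbx2 the reverse match sat 475 bp from the higher edge, with 4713 bp of site 3′ of it. At Adm the order was the other way, with 451 bp on the 3′ side and 1143 bp on the 5′ side.

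**Figure D1:**
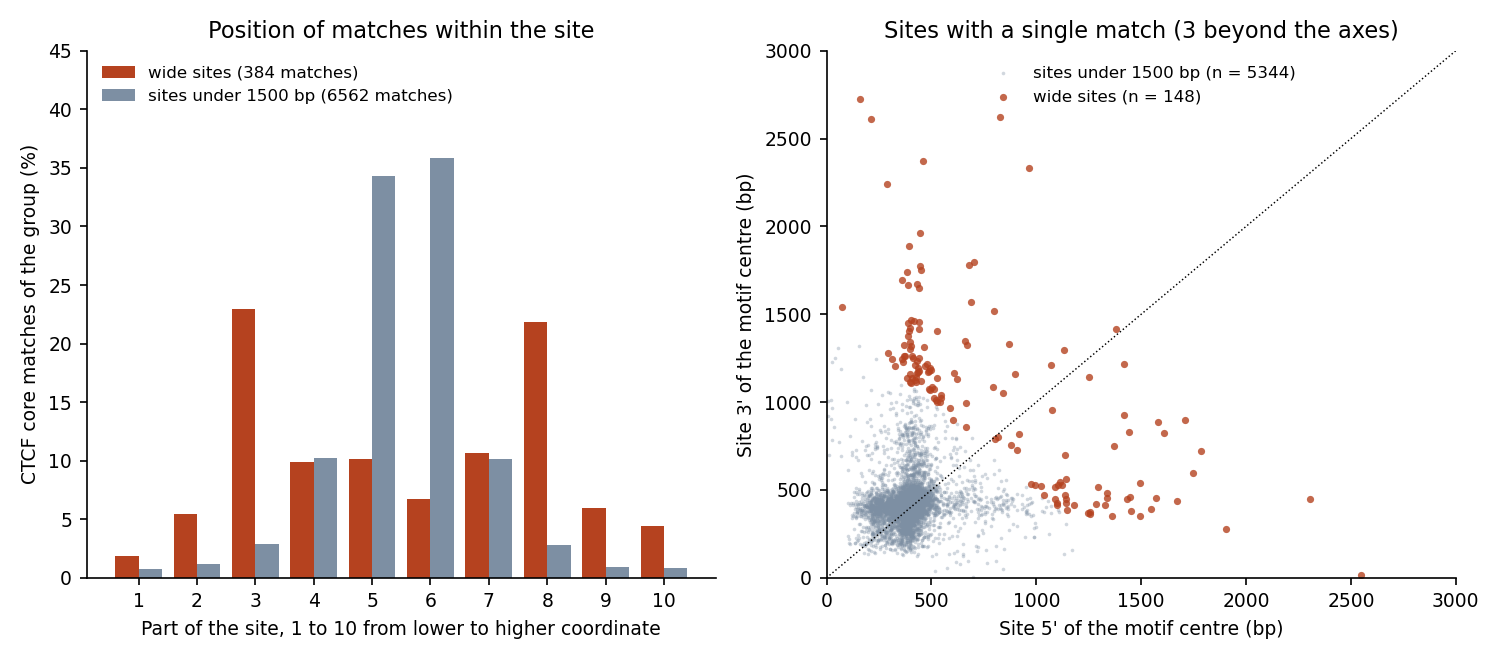
Left, the percentage of CTCF core matches (at most 1 mismatch) in each of 10 equal parts of the site (from lower to higher coordinate), for wide sites (384 matches) and sites under 1500 bp (6562 matches). Right, the length of the site in bp on the 5′ and 3′ side of the motif for each site with a single match, 148 wide and 5344 narrower; the dotted line marks equal sides and 3 points lie beyond the axes. Wide sites peak in parts 3 and 8, and the shorter side of their points has a median of 461 bp and the longer side one of 1255 bp.

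Wide sites more often held several matches. 2 or more were present in 107 wide sites (29.9%, 25.4 to 34.8) and in 7.31% (6.76 to 7.91) of sites under 1500 bp, a difference of 22.6 points (18.03 to 27.5), and 3 or more in 20 wide sites (5.59%) against 0.554%. A longer site has more room for a match: per kb, wide sites held 0.527 matches and sites under 1500 bp 0.996, while the regions 5 kb away held 0.174 and 0.118. In the 107 wide sites with several matches the density was 1.00 per kb, but several matches were the reason for their choice. Where exactly 2 matches were present, they lay a median of 718 bp apart in the 87 wide sites and 206 bp apart in the 537 narrower ones. They were at least 500 bp apart in 66.7% of these wide sites and in 9.87% of the narrower ones. The width of a site limits this spacing, which reached at most 805 bp in the narrower sites and 2339 bp in the wide ones. The contrast in spacing thus follows in part from the choice of sites by width. The 2 matches were on the same strand in 58.6%, convergent in 24.1% and divergent in 17.2% of wide sites, beside 55.3%, 22.2% and 22.5% of narrower ones. In the 107 wide sites with several matches, the outermost matches lay a median of 469 bp from their edge (quartiles 403 and 819), over both edges of each site. The 461 bp of single matches is for the nearer edge alone, so the 2 medians are unlike measures.

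Among wide sites with 3 or more matches, the widest were at Rxrg, Rhof, Klhdc9, Col14a1 and Ptma. The Rxrg site (chr1:169564022-169568766, 4745 bp, score 101) lay in an intron of the gene for retinoid X receptor gamma and held 3 matches, all on the reverse strand. The Rhof site (chr5:123581914-123586192, 4279 bp, score 72.2) covered a TSS and held 4, all but 1 on the reverse strand. The Klhdc9 site (chr1:173288294-173292546, 4253 bp, score 103) also covered one and held 3. The Col14a1 site (chr15:55097074-55100987, 3914 bp, score 178) lay 40.3 kb upstream of the gene for collagen XIV, its nearest protein-coding gene. The start of a U7 snRNA gene was nearer, at 4.87 kb, and another Wapal site was centred 2.79 kb away. The Ptma site (chr1:88427143-88430919, 3777 bp, score 129) lay 5.72 kb downstream of the start of the gene for prothymosin alpha. Of these 5 sites only that at Ptma held an exact match.

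**Figure D2:**
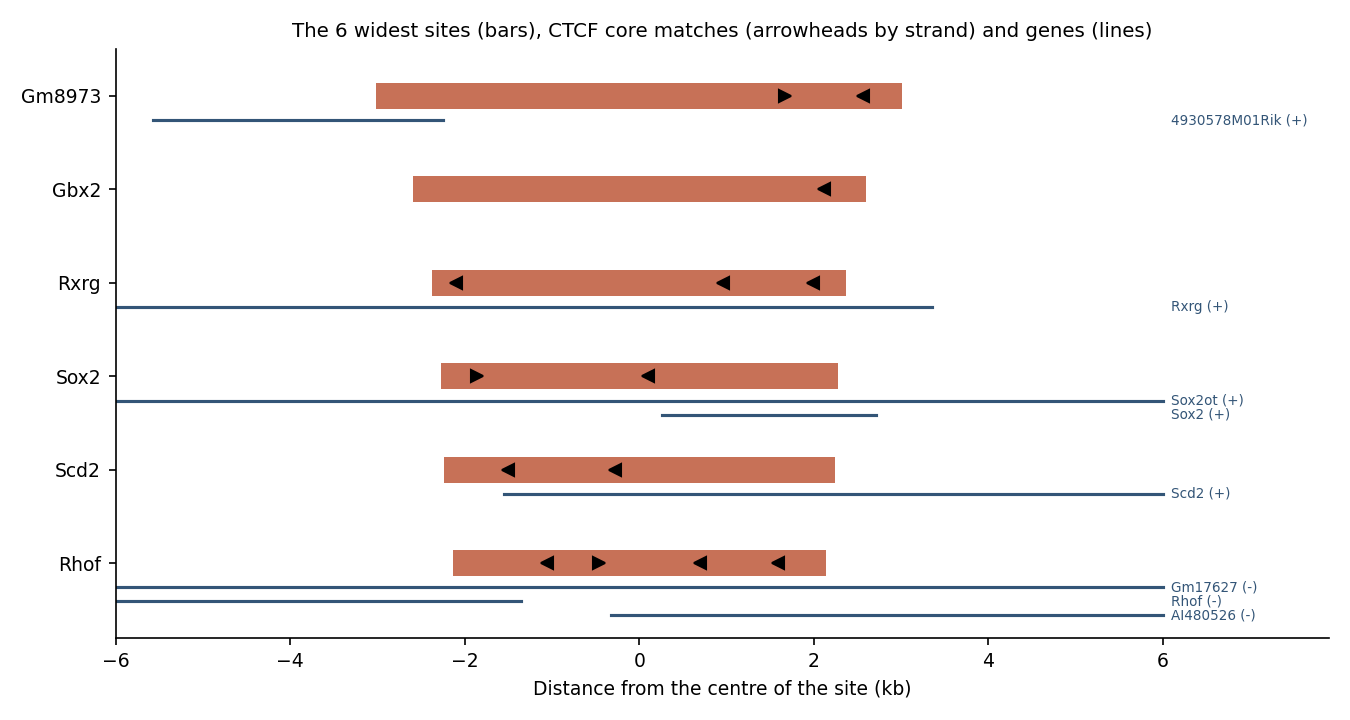
The 6 widest sites (bars), drawn in kb from the centre of each site, with CTCF core matches as arrowheads that point right for the forward and left for the reverse strand, and annotated genes as lines with their strand. In the uppermost sites, at 4930578M01Rik (labelled by the nearest protein-coding gene, Gm8973) and at Gbx2, every match lies in the right-hand part of the site, 445 and 475 bp from the edge for the outermost.

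The share of wide sites in promoters was more than double that of narrower sites. The centre lay within 2 kb of an annotated TSS in 79 wide sites (22.1%, 18.1 to 26.6) and in 742 of the sites under 1500 bp (9.34%, 8.72 to 10.0), a difference of 12.7 points (8.69 to 17.3). Introns held 22.1% (18.1 to 26.6) of wide and 33.9% (32.8 to 34.9) of narrower sites, a difference of -11.8 points (-15.9 to -7.11). Extragenic sequence held 52.0% (46.8 to 57.1) and 54.2% (53.1 to 55.3), and exons 3.91% (2.34 to 6.46) and 2.58% (2.25 to 2.95). A wide site lay a median of 9.72 kb from the nearest TSS (95% interval of the median 8.02 to 11.7) and a narrower one 16.5 kb (16.0 to 17.2). Over 50 kb from any TSS lay 30 wide sites (8.38%, 5.93 to 11.7) and 21.3% (20.4 to 22.2) of the narrower ones. The median GC content was 48.2% (47.6 to 48.9) in wide sites and 44.1% (44.0 to 44.3) in narrower ones.

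The shares also changed with width among sites under 1500 bp. The promoter share was 6.26% (5.25 to 7.46) in the class under 700 bp, 17.4% (13.9 to 21.7) in the last class under 1500 bp, 16.0% (11.2 to 22.5) in the first class of wide sites and 30.0% (19.9 to 42.5) at 2500 bp and above. The intervals of the neighbouring classes on each side of the limit overlapped. The share with 2 or more matches was 3.94% (3.14 to 4.92) in the narrowest class, 33.3% (23.5 to 44.8) in the class just under 2000 bp, 21.9% (13.5 to 33.4) in the class from there to 2500 bp and 46.7% (34.6 to 59.1) in the widest.

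**Figure D3:**
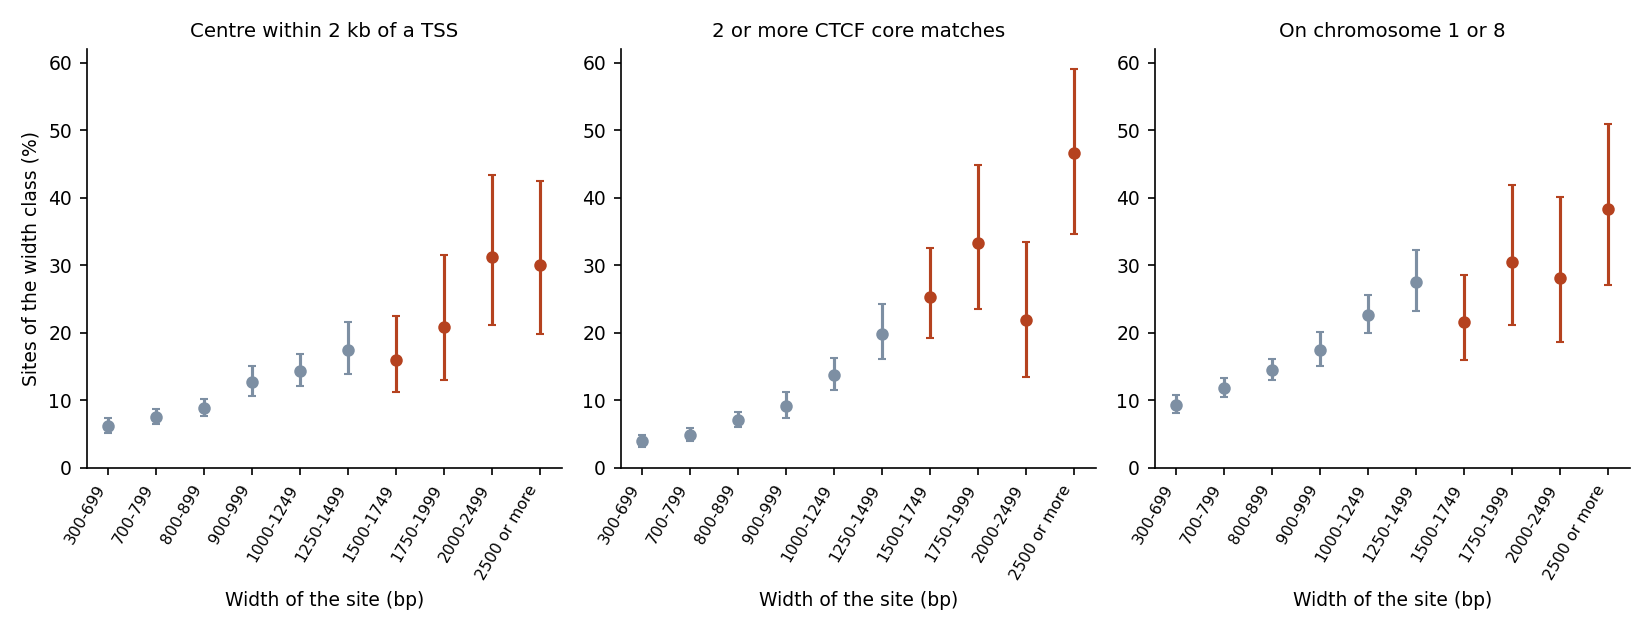
The percentage of sites in each class of width (bp) with the centre within 2 kb of a TSS (left), with 2 or more CTCF core matches (middle) and on chromosome 1 or 8 (right), for classes under 1500 bp (grey-blue) and for wide sites (red); bars are Wilson 95% intervals for counting error. In each panel the widest class lies above the narrowest, for promoters at 30.0% against 6.26%, with falls between some neighbouring classes.

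Wide sites in promoters were often rich in CpG dinucleotides, the usual sequence of broadly active and of developmental promoters. GC content and CpG ratio were taken over the site itself, not over the promoter. Wide sites also covered a TSS more often, at 17.9% (14.3 to 22.2) of all wide and 3.13% (2.77 to 3.54) of narrower sites. The part of this in the contrast below was not tested. Of the 79 promoter sites, 29 (36.7%, 26.9 to 47.7) had a GC content of at least 50% and an observed over expected CpG ratio of at least 0.6, against 9.03% (7.17 to 11.3) of the 742 narrower promoter sites. Outside promoters 5 of 279 wide sites did (1.79%). The nearest TSS was of a protein-coding gene for 67 of the 79, and 57 wide sites covered a protein-coding TSS. A CTCF core match was present in 47 of the 79 promoter sites (59.5%, 48.5 to 69.6) and in 208 of 279 (74.6%, 69.1 to 79.3) of the other wide sites.

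Promoter sites of protein-coding genes with the highest scores were at Col23a1, Snx18 and Cep164. The Col23a1 site (chr11:51102605-51104180, 1576 bp, score 189) was centred 29 bp upstream of the TSS of a collagen gene, had 60.7% GC and held no match. The Snx18 site (chr13:114408128-114409716, 1589 bp, score 161) stood at the start of a sorting nexin gene of endocytosis and held 1. The Cep164 site (chr9:45636340-45637926, 1587 bp, score 136) stood at the start of a gene for a centriole appendage protein needed for cilia and held 2. Elmo1, a partner of the Rac activator Dock, had a site of 2823 bp and score 132. Wnt7b, a Wnt ligand, had a site of 1711 bp and score 109.7 without a match, centred 1.43 kb upstream of its TSS. Mgat5b, a glycosyltransferase, had the richest of the 10 in GC, at 65.3%, with 1 exact match in 1665 bp. Paxip1, a chromatin protein of the DNA damage response and of histone methyltransferase complexes, had a site of 4019 bp with 2. Gm10203 had one of 2651 bp, and Snapc5, a subunit of the complex that starts snRNA transcription, one of 1590 bp over a start shared with Rpl4.

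Several wide sites lay near genes of the pluripotency network, among them Sox2 and Gbx2. Sox2 encodes a transcription factor that ESCs need for self-renewal. Its promoter site (chr3:34546394-34550944, 4551 bp, score 112) covered the TSS, inside the overlapping long non-coding gene Sox2ot, and held 2 convergent matches, 1 exact, and 3 GC boxes (GGGGCGGGG). It had a GC content of 54.6%, and a BirA region lay 4.25 kb from it. A second wide site with Sox2 as its nearest protein-coding gene (chr3:34654849-34657456, 2608 bp, score 87.8) was centred 107 kb downstream, in the direction in which the distal Sox2 enhancer of ESCs is known to lie. That site was singled out after its values were seen: it held no CTCF core match and the 2 Esrrb elements printed above.

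Gbx2 encodes a homeobox factor downstream of leukaemia inhibitory factor, the cytokine of ESC culture. Its site (chr1:91835289-91840476, 5188 bp, score 144) was extragenic, centred 8.02 kb upstream of the TSS, and held 1 match, 2 GC boxes and an octamer (ATGCAAAT), the element bound by Oct4. Wide sites without a CTCF core match lay 4.92 kb from a TSS of Id1, an inhibitor of differentiation induced by BMP (1915 bp, score 111), 12.1 kb from one of Lifr, the receptor for leukaemia inhibitory factor (1971 bp, score 76.7), and 9.75 kb from one of Tet2, a 5-methylcytosine oxidase (2482 bp, score 71.6, in an intron of the gene). In all, 5 of 41 annotated genes of the pluripotency list (12.2%) had a wide site within 20 kb of a TSS, against 331 of 22238 protein-coding genes (1.49%). For sites under 1500 bp the corresponding shares were 36.6% and 21.2%. This gene list and those below were chosen with earlier results of these data known and hold few genes, so their shares are a description only.

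Of the Polycomb complex genes, whose products keep developmental genes silent, 4 of 23 (17.4%) had a wide site within 20 kb, against 1.49% of all protein-coding genes. These were Eed, a core subunit of Polycomb repressive complex 2, with a site of 1720 bp and score 57.7, and Mtf2, which brings that complex to DNA, with an intronic site of 2587 bp and score 55.0. Cbx7 and Phc1, subunits of Polycomb repressive complex 1, had sites of 1511 bp (score 124) and 1505 bp (score 58.7). From a TSS of the listed gene, the site lay 16.4 kb at Eed, 3.28 kb at Mtf2, 11.9 kb at Cbx7 and 18.7 kb at Phc1. The Eed site was extragenic, the Cbx7 site lay in an intron of that gene, and the Phc1 site lay in the neighbouring gene M6pr. The Cbx7 site held 2 CTCF core matches and the other 3 sites none. Narrower sites lay near 5 of the 23 (21.7%), beside 21.2% of all protein-coding genes.

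In the other lists 1 or 2 genes had a wide site within 20 kb, again beside 1.49% of all protein-coding genes for wide and 21.2% for narrower sites. Of 47 annotated developmental regulators 2 had one (4.26%, and 27.7% a narrower site): Eomes, a T-box factor of mesendoderm, with a site of 2407 bp and score 63.2, and Hoxc4, with one of 1538 bp and score 76.9 that lay in Hoxc5. Among the 14 cohesin and CTCF genes (7.14% and 21.4%) only Ctcf itself had one, of 1890 bp and score 51.4 that overlapped the neighbouring gene Fam65a, with 3 matches. Of 33 imprinted genes (3.03% and 36.4%) Phlda2, which restrains placental growth, had one of 2051 bp and score 84.4. Of 16 immediate early genes (6.25% and 12.5%) Adm, for the vasodilator peptide adrenomedullin, had one (chr7:117773419-117775012, 1594 bp, score 78.1), which was the only wide site to hold 1 of the study's 15 ChIP-qPCR amplicons with stated positions.

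Wide sites also lay near genes of small RNAs, a group counted after values were seen. An snRNA or snoRNA gene was within 2 kb of 13 wide sites (3.63%, 2.13 to 6.11) and of 0.516% (0.381 to 0.699) of narrower ones. Many snoRNAs are cut from introns of genes for the translation machinery, and the nearest genes here included Rps12, Rpl3, Rpsa and Rpl4, all of ribosomal proteins, and Eef1b2, a translation elongation factor. Others were at Snhg1, a snoRNA host gene, and near Hspa8, a chaperone. 7 of the 13 held no CTCF core match. The Rps12 site (1990 bp, score 84.8) and the Rpsa site (2391 bp, score 55.1) were among them, while the Eef1b2 site (1953 bp, score 76.3) held 3 matches, 2 of them exact. A ribosomal protein gene was within 2 kb of 5 wide sites (1.397%) and of 0.113% of narrower ones. Reads that aligned to several places were not kept by the study, so near-identical gene copies are covered in part only.

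Genes with several wide sites were few. Of 346 protein-coding genes nearest to a wide site, 10 were nearest to more than 1. Pde4d, a cyclic AMP phosphodiesterase, had 3, of which the promoter site (2125 bp, score 87.4) held no match, and the intronic sites (1760 bp, score 187, and 1739 bp, score 107) held 2 and 1. Tbc1d1, a Rab GTPase-activating protein, also had 3 (1616, 1507 and 1796 bp). Another site of any width lay within 10 kb of 59 wide sites (16.5%, 12.997 to 20.7) and of 12.2% (11.47 to 12.9) of narrower ones, a difference of 4.31 points (0.747 to 8.56). Within 5 kb the shares were 6.15% and 6.28%, a difference of -0.14 points (-2.26 to 2.89).

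The 103 wide sites without a CTCF core match were more often in promoters (31.1%) than the 255 with one (18.4%). The difference, with a match minus without, was -12.6 points (-23.0 to -2.99). Their median width of 1820 bp (1749 to 1925) and score of 69.5 (63.1 to 76.7) lay near those of the sites with a match, 1780 bp (1713 to 1857) and 77.7 (73.3 to 83.3). The highest score among them, 197, was at A830018L16Rik, in an intron of the gene.

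Among other motifs, searched without mismatch on both strands, the GC box was denser in wide sites than beside them and in narrower sites, the Esrrb element and the E-box were denser than in narrower sites, and the Yy1 element was less dense than in narrower sites. The GC box GGGGCGGGG, bound by Sp and Klf factors, occurred 0.111 times per kb in wide sites (exact Poisson 95% interval 0.0883 to 0.138), 0.0453 (0.0350 to 0.0576) in regions 5 kb away and 0.0363 (0.0318 to 0.0412) in sites under 1500 bp. In sites of 1000 bp up to the limit it was at 0.0654 (0.0528 to 0.0800). In wide sites in promoters it reached 0.210 per kb (0.148 to 0.290), and outside promoters 0.0796 (0.0579 to 0.107), against 0.0319 (0.0275 to 0.0368) in narrower sites outside promoters. GC content moved with it, and its part in the result was not tested.

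The Esrrb element TCAAGGTCA had 41 matches in wide sites, 0.0563 per kb (0.0404 to 0.0764), against 0.0336 (0.0249 to 0.0445) in the regions 5 kb away, whose interval overlaps, and 0.0288 (0.0249 to 0.0333) in sites under 1500 bp. Sites of 1000 bp up to the limit had 0.0327 (0.0240 to 0.0435), whose interval also overlaps that of wide sites. By place, 38 of the 41 lay in wide sites outside promoters, which made up 552 of the 728 kb, at 0.0688 per kb (0.0487 to 0.0944). Wide sites in promoters had 0.0170 (0.00352 to 0.0498), whose interval overlaps. Narrower sites outside promoters had 0.0285 (0.0244 to 0.0332). Wide sites without a CTCF core match had 0.0868 per kb (0.0515 to 0.137) and those with one 0.0441 (0.0280 to 0.0662), with overlapping intervals. The octamer ATGCAAAT was at 0.101 per kb (0.0627 to 0.155) in wide sites without a CTCF core match and 0.0441 (0.0280 to 0.0662) in those with one, again with overlapping intervals. Over all wide sites it was at 0.0604, the same as the 0.0604 in sites under 1500 bp.

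The E-box CACGTG, bound by Myc and Max, was at 0.2196 per kb (0.187 to 0.256) in wide sites, 0.168 (0.148 to 0.191) in regions 5 kb away and 0.142 (0.133 to 0.151) in sites under 1500 bp. In sites of 1000 bp up to the limit it was at 0.163 (0.143 to 0.185). The AP-1 element TGANTCA, bound by Fos and Jun, was at 0.262 (0.226 to 0.302) in wide sites and 0.315 (0.302 to 0.329) in narrower ones. The Yy1 element AAGATGGC was at 0.0577 (0.0416 to 0.0779) and 0.0876 (0.0806 to 0.0951). Regions 5 kb from wide sites had 0.0721 (0.0589 to 0.0872), an interval that overlaps both. Sites of 1000 bp up to the limit had 0.0953 (0.0800 to 0.113). The other elements searched, CRE (TGACGTCA), ETS (CCGGAAGT), ZNF143 and NRF1, had 10, 17, 7 and 2 matches in wide sites, with intervals that overlapped those of the regions 5 kb away. A match describes the sequence and does not show that the factor was bound.

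**Figure D4:**
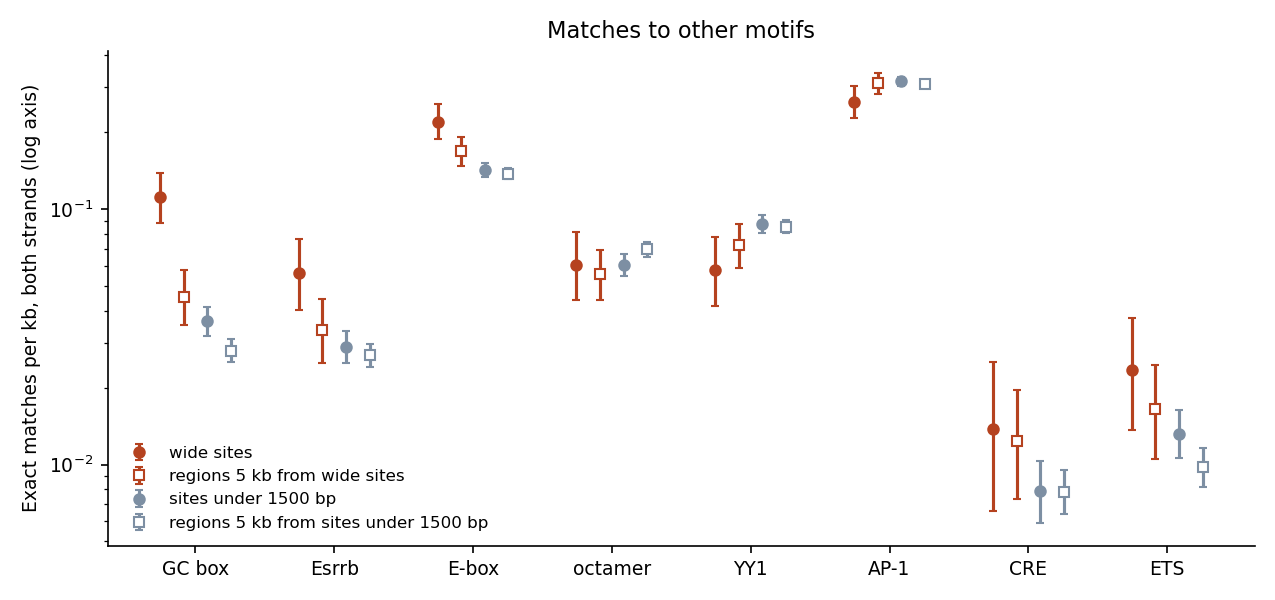
Exact matches per kb on both strands, on a log axis, for 8 elements in wide sites and sites under 1500 bp (filled circles) and in regions of the same width 5 kb to each side (open squares); bars are exact Poisson 95% intervals. For the GC box, wide sites at 0.111 per kb stand above the other groups, and for the octamer the wide and narrower sites lie together at 0.0604.

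Wide sites were unevenly spread over the chromosomes, with the largest numbers on chromosomes 1 and 8. Chromosome 1 held 53 and chromosome 8 held 45, which were 7.42% (5.72 to 9.58) and 8.36% (6.31 to 11.01) of all Wapal sites there. On the other 17 autosomes the wide share ran from 1.57% on chromosome 14 to 5.42% on chromosome 15 and was 3.75% (3.32 to 4.22) together. The X chromosome held 1 wide site among 159, next to Usp9x. These 2 autosomes were picked out after their values were seen. They make up 13.2% of autosomal bases and held 98 of the 358 wide sites (27.4%, 23.0 to 32.2), against 14.4% (13.7 to 15.2) of the sites under 1500 bp. The density was 0.310 wide sites per Mb there and 0.125 on the other autosomes, while sites under 1500 bp stood at 3.63 and 3.20 per Mb.

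The larger share was present in wide sites with and without a match and at lower and higher scores, and was clearest outside promoters. Chromosomes 1 and 8 held 28.2% (23.1 to 34.1) of wide sites with a CTCF core match and 25.2% (17.8 to 34.4) of those without, against 14.1% (13.3 to 15.1) and 15.3% (13.8 to 16.9) of narrower sites. They held 30.5% (25.4 to 36.1) of wide sites outside promoters, against 14.9% (14.1 to 15.7) of narrower ones. In promoters the shares of 16.5% (9.88 to 26.1) and 10.2% (8.26 to 12.6) had overlapping intervals. Of the wide sites on chromosomes 1 and 8, 13.3% were in promoters, against 25.4% on other chromosomes. That difference was -12.1 points (-19.9 to -2.63). A TSS was covered by 8.16% and 21.5%, a difference of -13.4 points (-20.1 to -4.91). For scores under 75 the shares were 26.7% (20.7 to 33.6) of wide and 12.6% (11.5 to 13.7) of narrower sites, and for higher scores 28.1% (22.0 to 35.1) and 15.8% (14.8 to 16.9). By width the share was 9.34% (8.09 to 10.7) under 700 bp, 27.5% (23.2 to 32.3) in the last class under 1500 bp, 21.6% (16.0 to 28.6) in the first class of wide sites and 38.3% (27.1 to 51.0) at 2500 bp and above. Over all sites the median width was 872 bp on chromosome 1 and 867 bp on chromosome 8. Their median scores of 87.0 and 88.1 were the highest of any chromosome. The other autosomes had median widths of 785 to 856 bp. On the X chromosome the median width of 675 bp and the median score were the lowest of any chromosome with sites. The shift on chromosomes 1 and 8 was thus present over all sites, not in wide sites alone. The part of chromosome copy number and of read depth in this shift was not tested.

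**Figure D5:**
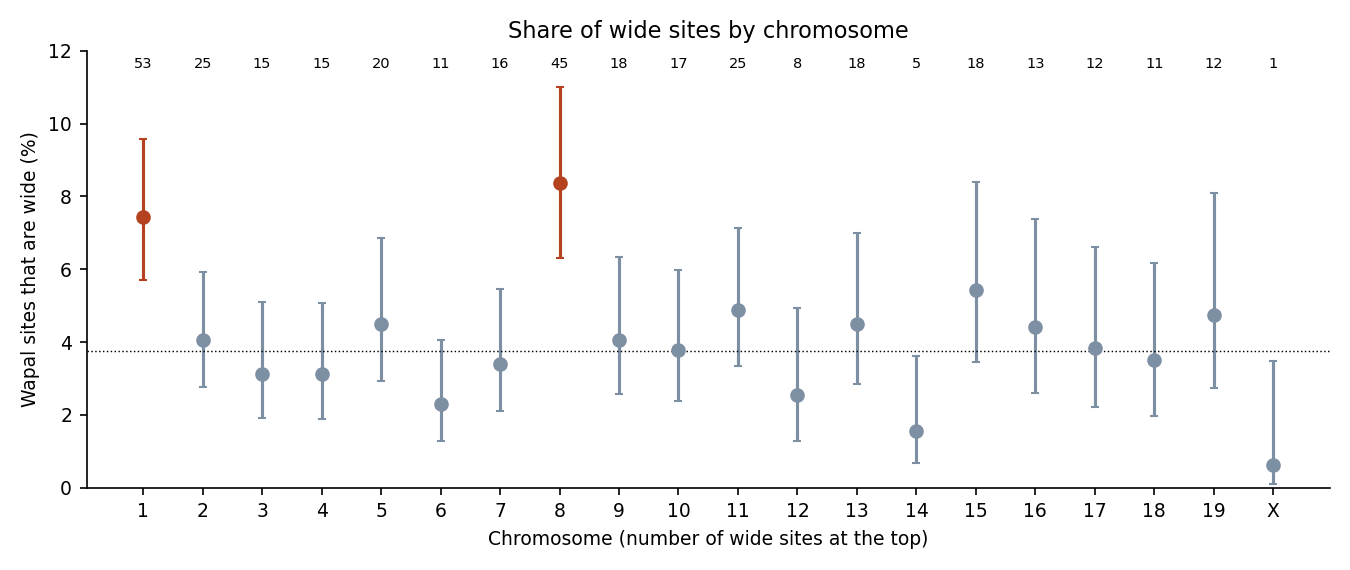
The percentage of Wapal sites on each chromosome that are wide, with Wilson 95% intervals and the number of wide sites at the top; chromosomes 1 and 8 are in red and the dotted line is the 3.75% of the other autosomes together. Chromosomes 1 (7.42%) and 8 (8.36%) stand above all others.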

How the data were processed

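Wapal occupancy was measured by biotin-mediated ChIP-seq in ESCs, in 2 FB Wapal clones, 1 BirA library and 1 input library. Alignment to mm9 by the authors used Bowtie and kept reads with a single alignment, and they called regions against input with MACS 1.4.2 at its default parameters and a p of 1e-05, by the methods of the study and the submitters' processing notes. The deposited values are a score for each region, as MACS writes it, with its start and end. Scores were not normalized between lists, and the rule that joined the clones is not given in the sources used here. No read counts were used, so depth per region is unknown.

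Regions sharing a base with a BirA region were removed. The build was checked by the ends of all regions and by 15 of 15 primer pairs found at their stated positions. Genes were from GENCODE M1 on NCBIM37. A promoter is a centre within 2 kb of a TSS of any gene type, before exon, intron and extragenic. The CTCF core has 12 positions, 4 of them ambiguous, and matches do not overlap. Shares carry Wilson intervals, differences Newcombe intervals and counts per kb exact Poisson intervals, at 95%, for counting error only: regions of 1 list are not replicates, so no test was made. Python 3.11.15, numpy 2.4.6, pandas 2.3.3, scipy 1.17.1 and matplotlib 3.10.9 were used, and the functions were tested on simulated data. The members, gene lists and motifs were chosen with earlier results of these data known. Named sites were drawn from the 5 of highest score, the 5 widest and the 5 widest with 3 or more matches. Also used were the 10 highest-scoring promoter sites of protein-coding genes, sites within 20 kb of a listed gene and those with an amplicon. The sites at Atxn7l1, of the highest scores, and Scd2, of the widest, are not described above. The single match of the Atxn7l1 site lay 756 and 881 bp from its edges. Sites near small RNA or ribosomal protein genes, genes with several sites, the distal Sox2 site, the edge and word counts and the grouping of chromosomes 1 and 8 were added after values were seen. Of the alternatives, other limits of width and score, gene sets, promoter distances, mismatches and neighbour distances were tried.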

Additional observations from a re-analysis of the deposited data

How the results depend on the processing

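Of 93 values recomputed over 16 alternatives, 66 stayed within the 95% interval of the reported value or, for counts of sites, within 1.5 times it, 25 left it and 2 changed sign. The sign changed for the difference in CTCF core share, which was 1.91 points (-7.10 to 8.76) with scores of at least 100 and 2.59 points with exact matches. With a match required within 250 bp of the centre it was -51.9 points. The number of wide sites was 700 from 1.25 kb, 124 from 2000 bp and 100 with scores of at least 100. From 2000 bp the promoter share was 30.6%, its difference 21.1 points, the intron share 16.1% and the TSS distance 5.56 kb. The promoter share was 17.3% within 1 kb, 36.9% within 5 kb and 27.4% when any base counted. Within 5 kb the intron share was 15.6% and the extragenic share 44.97%. With protein-coding genes alone the extragenic share was 57.8% and the TSS distance 13.6 kb. The CTCF core share was 80.0% with scores of at least 100, 30.7% for exact matches, 94.97% with 2 mismatches and 20.4% near the centre. The share with 2 or more matches was 24.9% from 1.25 kb, 37.0% with scores of at least 100, 2.51% for exact matches and 83.2% with 2 mismatches. Another site lay within 5 kb of 6.15% and within 20 kb of 26.8%. The cause of these shifts was not tested where the alternative's own construction does not give it.

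No paired analysis was possible because both clones stand in 1 joined list. Leaving out either clone was likewise not possible from that list. The soft-masked share planned for wide sites was not run, since the mm9 sequence used here has no lower-case bases. Widths are those of regions in the joined list, and how they depend on depth or fragment length was not tested.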
